A study of Pangasianodon hypophthalmus with 14 samples.

Results

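The step between the last 2 sampled ages of tra catfish (Pangasianodon hypophthalmus), 11 against 10 days post fertilization (dpf), was examined in RNA of whole larvae. It rests on 4 of the 14 RNA-seq libraries of a developmental series, 2 of 11 dpf and 2 of 10 dpf, and on all 21656 genes of the count table, of which 19310 had enough counts to be tested. No treatment or genotype separates the groups, so they differ in age alone as far as the labels tell, and the remaining 10 libraries (2 each at 2, 4, 6, 8 and 9 dpf) served to estimate the spread and to place each gene in the series. Each replicate was described as a pool of 4 larvae, and the methods also state that equal amounts of RNA of both pools of a stage went into library construction. The p-values therefore measure the spread between libraries, which may be partly or largely technical. The 2 libraries of 11 dpf differed by little more than the sampling of reads, as given below, so they may not be 2 separate biological samples. Ribosomal RNA was removed before sequencing, and the RNA comes from the whole body, so that fewer cells of a type and less RNA per cell cannot be told apart.

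At this age a catfish larva has used up its yolk and feeds, and the species is known for breathing air with its swim bladder. Glands of the stomach start to secrete acid through a proton pump of an alpha and a beta subunit, the gut lining takes up digested amino acids, sugars and bile acids through solute carriers, and the eye adds photoreceptors that signal through transducins. Blood oxygen is carried by hemoglobins, assembled from alpha and beta globins whose genes stand in clusters in fish and are used at different ages.

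The 2 libraries of 11 dpf held 6928056 and 6520633 counts, against 6197892 and 6611914 at 10 dpf, so that 3 counts, the floor used here, were worth 0.443 to 0.521 CPM, counts relative to library totals that were scaled by trimmed means of M values (TMM). The libraries of a pair were compared by a chi-square per gene, near 1 where they differ by the sampling of reads only. It was 18.7, 29.6 and 1.13 in the pairs of 2, 4 and 6 dpf, and 3.69, 1.15, 3.84 and 1.29 in the pairs of 8, 9, 10 and 11 dpf. All pairs entered the fitted spread, those of 2 and 4 dpf included. From 8 to 11 dpf the TMM factors alternated in the same way, with 0.915 and 0.895 for 8 dpf, 0.984 and 0.989 for 9 dpf, 0.930 and 0.919 for 10 dpf, and 0.977 and 0.978 for 11 dpf. For some genes the 4 libraries of 9 and 11 dpf all lay on the same side of the 4 libraries of 8 and 10 dpf, and these are named below as alternating. The part of library preparation in this pattern was not tested.

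Of the 19310 genes, 135 rose and 86 fell at 11 dpf, that is 0.699% and 0.445% of the genes tested and 1.14% in both directions together, as tested by quasi-likelihood in edgeR with p-values adjusted after Benjamini and Hochberg. A gene was called where the adjusted p was below 0.05 and the fold change exceeded 2-fold, a log2 fold change (log2FC) beyond 1 or -1. An unadjusted p under 0.05 at any fold was found in edgeR for 3925 of the 19310 genes, the background for such counts below. The 2 libraries of 11 dpf lay on 1 side of both of 10 dpf in every called gene, as they did for 28.2% (higher) and 29.7% (lower) of all genes. The balance depends on the scaling, since with library totals in place of TMM 186 rose and 54 fell (77.5% against 61.1% higher). Changes were moderate, with a median log2FC of 1.29 among genes that rose and -1.16 among those that fell, and 18 and 9 genes changed by more than 2 on the log2 scale. The genes that rose were of middling abundance (median 13.2 CPM over the 4 libraries), as were those that fell (12.14 CPM), and 8 in each direction reached 100 CPM. A name was available for 73 of the genes that rose and for 54 of those that fell.

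**Figure D1:**
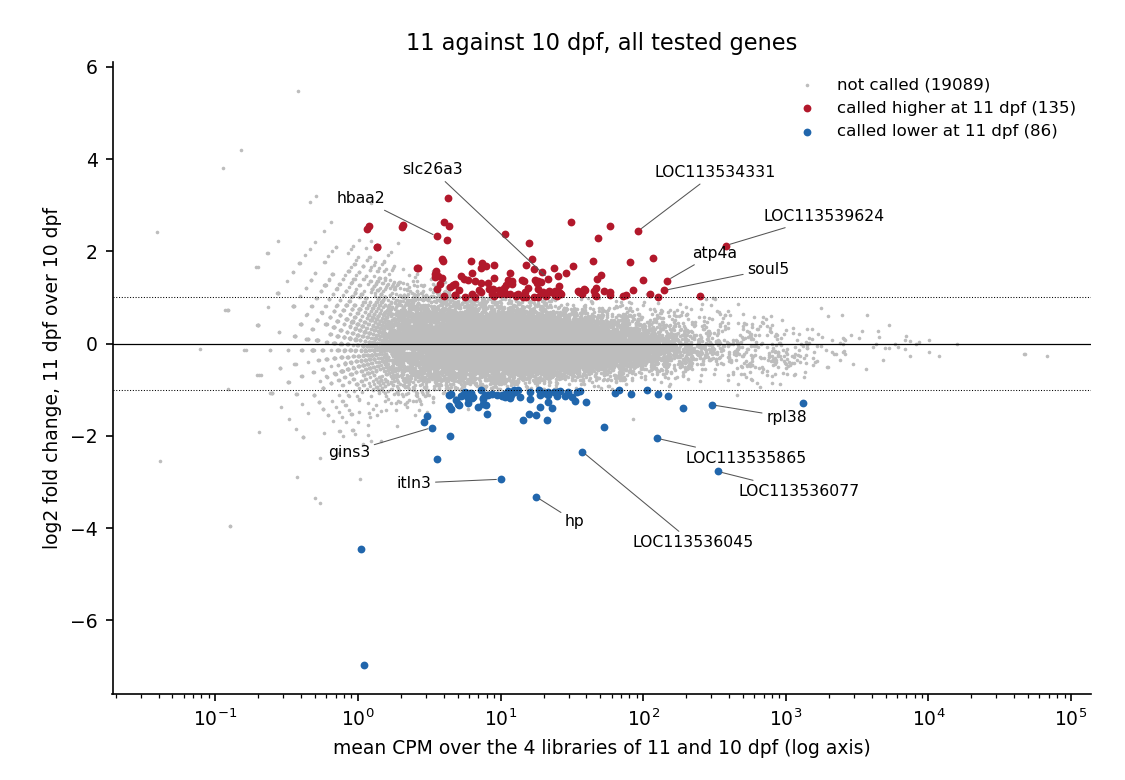
Each point is 1 of 19310 tested genes, with the mean CPM over the 4 libraries on the x axis (log scale) and the log2 fold change of 11 dpf over 10 dpf on the y axis, where red marks the 135 genes that rose, blue the 86 that fell and dotted lines a log2 fold change of 1 and -1. Most of the called genes lie between 1 and 3 on the log2 scale in either direction, and LOC113539624, atp4a, LOC113536077 and rpl38 are among the called genes of high level.

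Placed in the series, both 11 dpf libraries lay above the other 12 for 58 of the 135 genes that rose (4.45% of all genes tested had such a profile) and below them for 26 of the 86 that fell (4.29%). Alternating profiles were seen for 39 of the genes that rose and 39 of those that fell, against 4.8% and 6.6% of all genes, and a choice of genes that differ between 11 and 10 dpf favours such profiles. The remaining 96 and 47 did not alternate. Both 11 dpf libraries also lay above both 9 dpf libraries for 122 of the 135 genes that rose (32.5% of all genes) and below them for 67 of the 86 that fell (31.8%). The same 11 dpf values chose these genes, which also favours the counts against the 9 dpf libraries and against the other 12. These counts describe the profiles and are no separate support for a late change.

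Among the genes that fell were 3 neighbours without a symbol, LOC113535865, LOC113536045 and LOC113536077, which the study's gene ontology (GO) tables list under heme binding, LOC113536077 also under antioxidant activity. They were singled out after their values were seen. In the annotation of the assembly fPanHyp1.pri they stand in a stretch of 18 annotated genes, 12 of them tested, with the alpha globin gene hbaa2, the beta globin gene hbba2, and LOC113536294 and LOC113536204, which the same tables list under oxygen transport. LOC113536077 had 86.5 and 84.1 CPM at 11 dpf, against 711 and 455 CPM at 10 dpf, a log2FC of -2.77 (standard error 0.26, adjusted p = 5.28e-05 in edgeR). LOC113535865 had 50.8 and 45.8 CPM at 11 dpf, against 256 and 146 CPM at 10 dpf (log2FC -2.05, standard error 0.21), and LOC113536045 had 13.4 and 11.1 CPM at 11 dpf, against 71.9 and 53.4 CPM at 10 dpf (log2FC -2.34, standard error 0.19). In all 3 the groups were well apart, while the 10 dpf libraries differed from each other more than those of 11 dpf.

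These 3 genes had been expressed throughout the series. At 2, 4, 6, 8 and 9 dpf LOC113536077 averaged 218, 477, 1515, 1135 and 800.1 CPM, LOC113535865 87.4, 265, 458, 405 and 306 CPM, and LOC113536045 11.8, 37.2, 66.5, 84.2 and 57.9 CPM. Between 9 and 10 dpf none of them was called (log2FC of 10 over 9 dpf -0.46, -0.61 and 0.11 in that order), with adjusted p of at least 0.144 in edgeR. They were called without each of the 4 libraries in turn, and LOC113536045 was the only gene still called when the pairs of 6, 9 and 11 dpf were each summed to 1 library (adjusted p = 0.0241 in edgeR).

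The globins hbaa2 and hbba2 and the 2 oxygen transport genes of this stretch had higher values at 11 dpf, unlike the neighbours listed under heme binding. Whether those neighbours are globins too is not given in the sources used here. The alpha globin hbaa2 rose, with 7.68 and 4.24 CPM at 11 dpf, against 1.22 and 1.15 CPM at 10 dpf, and a log2FC of 2.32 (standard error 0.45, adjusted p = 0.0113 in edgeR), though from few reads, and it kept its call only without 11 dpf replicate 2 when single libraries were left out (adjusted p of 0.0268 in edgeR, and up to 0.166 for the others). DESeq2 gave no adjusted p for hbaa2. LOC113536294 had 2185 and 2249.6 CPM at 11 dpf, against 1229.7 and 1354 CPM at 10 dpf, and LOC113536204 4535 and 4482 CPM at 11 dpf, against 2690.2 and 3223 CPM at 10 dpf, with log2FC of 0.78 and 0.61 that did not pass the test (standard errors 0.63 and 0.61). The groups of both did not overlap, but both 11 dpf libraries lay above both of 10 dpf for 28.2% of all genes. The fitted spread included the 4 dpf pair, whose libraries held 82.6 and 3.45 CPM of LOC113536204. In a fit without 4 dpf, added after these values were seen, the adjusted p was 0.000463 for LOC113536294 and 0.00678 for LOC113536204 in edgeR, with fold changes still under 2-fold. This fit called 336 genes in place of 221, and as it was chosen on these values it is no separate support. The embryonic-type alpha globin hbae5, which lies elsewhere in the assembly, had 339.6 and 388 CPM at 11 dpf, against 142 and 230.04 CPM at 10 dpf (log2FC 0.97, adjusted p = 0.0984 in edgeR), and hbba2 6.80 and 5.33 CPM at 11 dpf, against 3.30 and 3.46 CPM at 10 dpf (log2FC 0.84). LOC113536081, which stands between LOC113535865 and LOC113536045, had 0.591 and 1.26 CPM at 11 dpf, against 2.08 and 0.823 CPM at 10 dpf, and was not called. Of the 7 globins tested by symbol 1 rose, where 0.699% of all genes did, with a median log2FC of 0.71 against -0.0041 over all genes. This list leaves out the genes of the stretch without a symbol, among them LOC113536204, LOC113536294 and the neighbours that fell, so it does not describe the whole stretch. Of 25 genes of heme synthesis and red cells 0 were called by edgeR or DESeq2 (10 at an unadjusted p under 0.05 in edgeR), and their median was -0.22. How the counting divided reads among near-identical globin copies is not given in the sources used here, so values of single copies are uncertain.

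**Figure D2:**
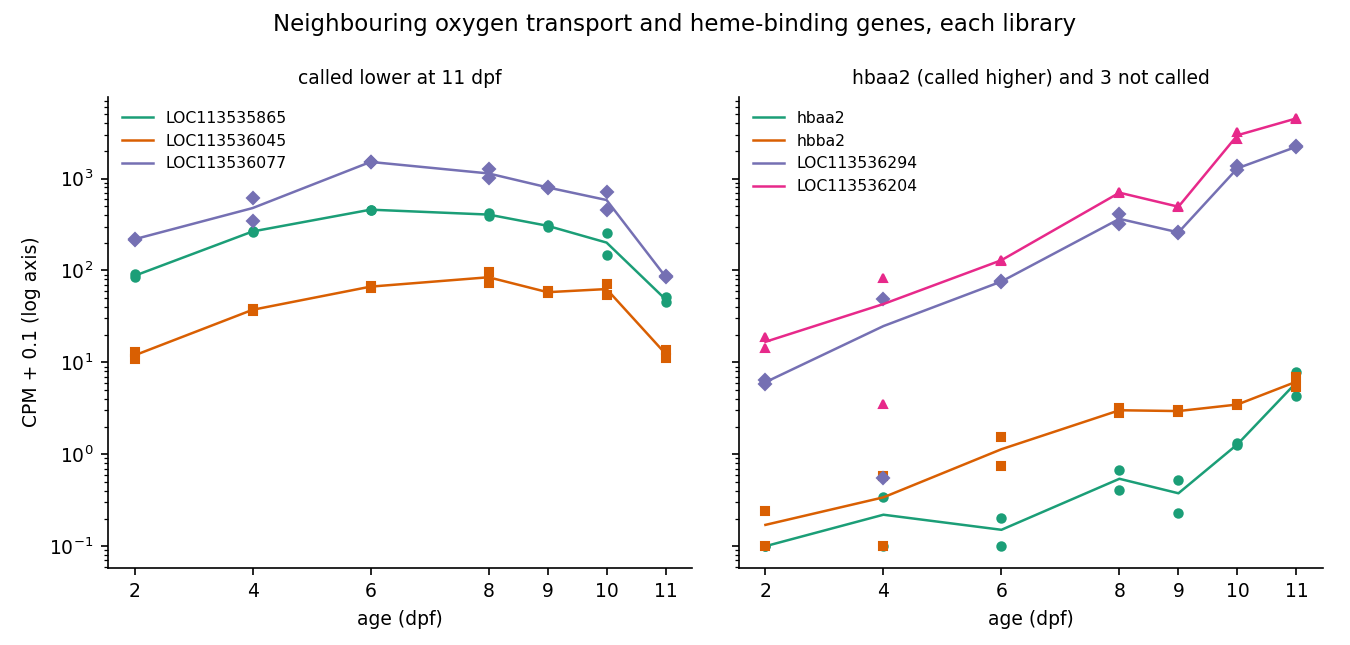
CPM + 0.1 (log axis) against age in dpf for 7 neighbouring genes, with each library as a point and the stage mean as a line. The left panel holds the 3 genes listed under heme binding that fell, for example LOC113536077 with 86.5 and 84.1 CPM at 11 dpf against 711 and 455 at 10 dpf, and the right panel hbaa2, hbba2, LOC113536294 and LOC113536204, whose 11 dpf libraries all lie above those of 10 dpf.

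Both subunits of the gastric proton pump rose, the catalytic subunit atp4a with 207 and 217 CPM at 11 dpf, against 51.6 and 112 CPM at 10 dpf, and the beta subunit atp4b with 53.4 and 52.7 CPM at 11 dpf, against 18.9 and 27.7 CPM at 10 dpf. Their log2FC were 1.37 (standard error 0.24, adjusted p = 0.00621 in edgeR) and 1.18 (standard error 0.22, adjusted p = 0.00811 in edgeR). The transcripts had been scarce before, with stage means of 2.17 CPM (atp4a) and 3.49 CPM (atp4b) at 9 dpf, and 10 dpf replicate 2 lay nearer to the 11 dpf level than replicate 1 in both. Leaving out 10 dpf replicate 1, or either 11 dpf library, took the call from both subunits (adjusted p of 0.0595 for atp4a and 0.121 for atp4b without 10 dpf replicate 1 in edgeR), while without 10 dpf replicate 2 the log2FC were 2.04 and 1.48. The other 7 stomach genes tested were not called, and the median over the 9 was 0.29, where 0.699% of all genes rose. DESeq2 called 2 of the 9 on 14 libraries and 1 on the 4 libraries of 10 and 11 dpf.

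A further 8 genes, without a name, shared this profile, of 10 found by a rule set after the values were seen (every library of 8 and 9 dpf below 10% of the 11 dpf mean, and a mean of at least 5 CPM over the 4 libraries). LOC113539624, listed under chitin metabolism in the study's GO tables, had 617 and 619 CPM at 11 dpf, against 95.5 and 188 CPM at 10 dpf. No library of 8 or 9 dpf held more than 4.52 CPM of it. LOC113531099 had 185 and 179 CPM at 11 dpf, against 40.98 and 59.1 CPM at 10 dpf, and LOC113531715, its neighbour in fPanHyp1.pri, 50.5 and 57.6 CPM at 11 dpf, against 4.69 and 12.5 CPM at 10 dpf. LOC113534331 had 161 and 149.98 CPM at 11 dpf, against 16.1 and 41.00 CPM at 10 dpf, and LOC113530710 99.9 and 101 CPM at 11 dpf, against 13.7 and 20.7 CPM at 10 dpf. The log2FC of these 5 lay between 1.86 and 2.64. In all 10 genes the 10 dpf replicate 2 exceeded replicate 1 and so lay nearer to the 11 dpf level. Replicate 2 was the nearer to the 11 dpf mean for 76 of the 135 genes that rose, 44 of the 86 that fell and 46.5% of all genes tested. LOC113531099, LOC113531715, LOC113534331, LOC113530710, LOC113532798 and LOC113523927 stayed called without each library, and LOC113539624 and LOC113527478 only without 10 dpf replicate 2 (adjusted p = 0.0284 and 0.000464 in edgeR).

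**Figure D3:**
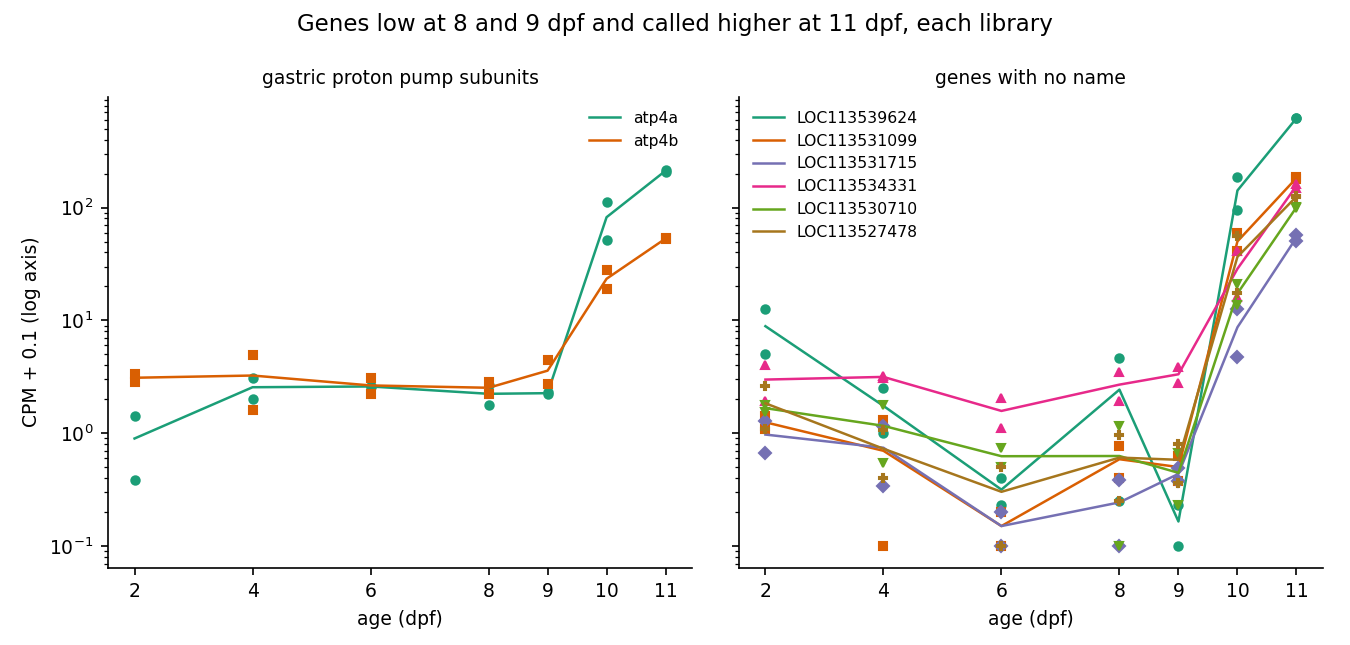
CPM + 0.1 (log axis) against age in dpf, with each library as a point and the stage mean as a line, for the proton pump subunits atp4a and atp4b (left) and for 6 genes without a name (right). All 8 were low until 9 dpf, for example atp4a at 2.17 CPM, and reached their highest level at 11 dpf, 207 and 217 CPM for atp4a. The rule that chose them required low values at 8 and 9 dpf and a call higher at 11 dpf.

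Several transporters of the gut and kidney lining rose. Of 368 solute carriers tested 9 rose and 1 fell, against 0.699% and 0.445% of all genes, with a median log2FC of 0.077. DESeq2 called 7 of them on 14 libraries and 5 on the 4 libraries of 10 and 11 dpf. The chloride and bicarbonate exchanger slc26a3 had 30.3 and 32.5 CPM at 11 dpf, against 9.72 and 13.8 CPM at 10 dpf (log2FC 1.41, standard error 0.17, adjusted p = 0.000313 in edgeR) and was called in every alternative except the summed pairs of 6, 9 and 11 dpf. Its relatives slc26a6l (log2FC 1.32) and slc26a9 (1.05), which also carry chloride, rose too, slc26a6l with 9.90 and 10.8 CPM at 11 dpf, against 5.21 and 3.13 CPM at 10 dpf, and slc26a9 with 9.75 and 14.1 CPM at 11 dpf, against 5.21 and 6.26 CPM at 10 dpf. slc12a8, of the family of cation and chloride cotransporters, had 6.65 and 4.71 CPM at 11 dpf, against 2.26 and 1.98 CPM at 10 dpf.

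Carriers of nutrients among the genes that rose were slc43a2b for neutral amino acids, slc3a1, the heavy chain of the transporter for cystine and basic amino acids, slc13a2 for citrate cycle dicarboxylates, and slc10a2, the bile acid carrier of the ileum. slc43a2b had 154 and 151 CPM at 11 dpf, against 68.6 and 75.4 CPM at 10 dpf, slc13a2 73.5 and 72.6 CPM at 11 dpf, against 28.5 and 37.4 CPM at 10 dpf, and slc3a1 34.9 and 37.2 CPM at 11 dpf, against 15.5 and 18.6 CPM at 10 dpf. slc10a2 had 63.8 and 61.5 CPM at 11 dpf, against 22.4 and 34.1 CPM at 10 dpf (log2FC 1.15). It was the only called member of the 40 intestinal absorption genes tested in edgeR, where 0.699% of all genes rose. DESeq2 called 1 of the 40 on 14 libraries and 3 on the 4 libraries of 10 and 11 dpf. On that list 30 of 40 had positive values (49.5% of all genes) with a median of 0.33, and 8 passed the adjusted p at any fold, all higher at 11 dpf (1.91% of all genes). These include sucrase-isomaltase si (log2FC 0.71), the peptide carrier slc15a1b (0.76), the amino acid carrier slc6a19b (0.77) and the alkaline phosphatase alpi.2 (0.997). The only solute carrier that fell was slc22a31, an orphan member of the organic ion transporters, with 1.77 and 3.14 CPM at 11 dpf, against 7.29 and 5.27 CPM at 10 dpf.

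The sodium pump beta subunit atp1b1b had 28.5 and 25.7 CPM at 11 dpf, against 12.5 and 12.5 CPM at 10 dpf, with an alternating profile, and the sodium and proton exchanger slc9a2 6.35 and 6.59 CPM at 11 dpf, against 3.30 and 2.96 CPM at 10 dpf. They were the 2 called of 28 ionocyte genes tested (median 0.13), where 0.699% of all genes rose. DESeq2 gave no adjusted p for slc9a2. The glycerol and water channel aqp7 had 25.4 and 27.6 CPM at 11 dpf, against 9.20 and 11.4 CPM at 10 dpf (log2FC 1.36, adjusted p = 0.000512 in edgeR), and stc1l, related to the calcium-lowering hormone stanniocalcin, 36.1 and 36.7 CPM at 11 dpf, against 14.9 and 15.6 CPM at 10 dpf (log2FC 1.25). LOC113544571, which the study identifies as CLCA1, a secreted regulator of chloride channels, and counts among its tra catfish-specific genes, had 81.9 and 75.9 CPM at 11 dpf, against 33.3 and 42.6 CPM at 10 dpf (log2FC 1.05). Its stage means at 2, 4, 6, 8 and 9 dpf were 0.419, 16.1, 11.7, 30.3 and 22.03 CPM. On the list of carbonic anhydrases and bicarbonate transporters, which does not hold slc26a6l, slc26a3 and slc26a9 were the 2 called of 33 tested, where 0.699% of all genes rose. On that list 27 had positive values (49.5% of all genes) and the median was 0.21. Of the transporters named above, slc26a3, slc43a2b and aqp7 stayed called without each library, and slc26a6l, slc26a9, slc9a2, slc12a8, slc22a31, stc1l and LOC113544571 lost their call without any 1 of the 4 (log2FC of 0.76 to 1.30 for slc26a9).

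Metabolic genes that rose included agxtb, which detoxifies glyoxylate in liver, with 166 and 174 CPM at 11 dpf, against 64.4 and 104 CPM at 10 dpf (log2FC 1.01). The glucose-6-phosphatase g6pc1a.1, which releases glucose from liver cells, had 17.7 and 17.1 CPM at 11 dpf, against 5.04 and 6.92 CPM at 10 dpf (log2FC 1.54, adjusted p = 0.00197 in edgeR), and the uncoupling protein ucp1 55.6 and 51.9 CPM at 11 dpf, against 23.8 and 24.2 CPM at 10 dpf (log2FC 1.16). gcga, the precursor of glucagon, fell, with 3.84 and 5.18 CPM at 11 dpf, against 8.86 and 13.8 CPM at 10 dpf. These are 3 called of 52 genes of gluconeogenesis and fasting (median -0.088) and 1 of 43 of fat oxidation (median 0.027), against 1.14% of all genes called in either direction. The coenzyme Q reductase aifm2 had 113 and 123 CPM at 11 dpf, against 51.9 and 54.01 CPM at 10 dpf, the heme-binding soul5 199 and 187 CPM at 11 dpf, against 94.5 and 79.2 CPM at 10 dpf, and tspan3, a membrane tetraspanin, 66.1 and 64.5 CPM at 11 dpf, against 30.2 and 26.8 CPM at 10 dpf. Of 9 digestive enzymes of the pancreas, prss1, a trypsin, with 417 and 423 CPM at 11 dpf, against 221 and 210.3 CPM at 10 dpf (log2FC 0.96), and amy2a, an amylase, with 405 and 411 CPM at 11 dpf, against 224 and 186 CPM at 10 dpf (log2FC 0.99), were past the adjusted p and just under the fold limit (adjusted p of at most 0.00923 in edgeR). The smallest value among the 9 pancreatic genes was -0.51 for the colipase clps.

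Photoreceptor genes had mostly higher values at 11 dpf. Of 46 phototransduction genes tested 4 rose, against 0.699% of all genes that rose, 37 had positive values and the median log2FC was 0.45. The transducin alpha subunit of rods, gnat1, had 12.4 and 10.98 CPM at 11 dpf, against 5.90 and 5.27 CPM at 10 dpf, and that of cones, gnat2, 13.9 and 15.7 CPM at 11 dpf, against 6.77 and 7.25 CPM at 10 dpf. The arrestin saga, which ends the response of rhodopsin, had 9.31 and 9.73 CPM at 11 dpf, against 3.82 and 3.62 CPM at 10 dpf (log2FC 1.35, standard error 0.26, adjusted p = 0.00808 in edgeR), and the calcium sensor rcvrn2 13.01 and 10.04 CPM at 11 dpf, against 4.34 and 5.76 CPM at 10 dpf. The summed level of the list was 381 and 402 CPM at 11 dpf, against 318 and 315 CPM at 10 dpf.

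In all 4 the 9 dpf mean already lay above that of 10 dpf. saga averaged 8.67 CPM at 9 dpf and 1.80 CPM at 8 dpf, rcvrn2 9.22 and 4.02 CPM, and 10 of the 46 list members alternated upwards, saga, gnat1 and rcvrn2 among them. All 4 called members lost their call when any 1 of the 4 libraries was left out (adjusted p for saga 0.0676 to 0.0975 in edgeR). gnat1 stood just inside the threshold, with adjusted p = 0.0499 in edgeR, and was not called by DESeq2 on 14 libraries. DESeq2 called 3 of the phototransduction list on 14 libraries and 1 on the 4 libraries of 10 and 11 dpf. sncb, the presynaptic beta-synuclein, with 20.5 and 20.2 CPM at 11 dpf, against 9.20 and 6.59 CPM at 10 dpf, and gng3, a G protein gamma subunit of neurons, with 11.4 and 10.7 CPM at 11 dpf, against 4.17 and 2.96 CPM at 10 dpf, had the same form. Their means at 9 dpf were 27.9 CPM (sncb) and 11.2 CPM (gng3). Of 89 neuron and synapse genes sncb alone was called, against 1.14% of all genes. On this list 13 alternated upwards and 0 downwards (4.8% and 6.6% of all genes), and the median was 0.13. By contrast the lens connexin gja8b, with 19.7 and 18.7 CPM at 11 dpf, against 6.77 and 12.2 CPM at 10 dpf, and calretinin calb2, a calcium buffer of neurons, with 32.8 and 31.8 CPM at 11 dpf, against 17.7 and 13.5 CPM at 10 dpf, rose without alternating.

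Genes of DNA replication and cell division had mostly lower values. Of 93 tested, 82 had negative values, with a median log2FC of -0.40 (RLE scaling -0.40, library totals -0.32). Only gins3, of the helicase complex that opens origins, and cenpt, of the kinetochore, passed both limits, where 0.445% of all genes fell, and 13 passed the adjusted p at any fold, all lower (1.69% of all genes). DESeq2 on 14 libraries called 2 of the list. On the 4 libraries of 10 and 11 dpf it called 0 and gave gins3 and cenpt no adjusted p. gins3 had 1.33 and 1.57 CPM at 11 dpf, against 5.04 and 5.27 CPM at 10 dpf (log2FC -1.82), and cenpt 3.55 and 4.08 CPM at 11 dpf, against 9.90 and 10.04 CPM at 10 dpf (log2FC -1.39, adjusted p = 0.00572 in edgeR). The others past the adjusted p were mcm6 (log2FC -0.71), mcm7 (-0.68) and cdc45 (-0.85) of the same helicase, the polymerase subunits pold1 (-0.78), pole (-0.79) and prim2 (-0.81), the nucleotide enzymes tk1, rrm1 and dut, cenpn, and the separase espl1. The summed level of the list was 1950.2 and 1957 CPM at 11 dpf, against 2633 and 2526 CPM at 10 dpf.

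A further 15 genes act in the same processes but were not on the list. As they were picked from the genes that fell, after their values were seen, they are no support for the list. Genes of these processes outside the list that did not fall were not counted, so no share stands beside the 15. They are the cell cycle transcription factor mybl2, the checkpoint kinases chek1 and atr, the repair factors mre11, bard1, brip1, mcm9 and zranb3, the replication factors wdhd1 and pclaf, the condensin subunit ncaph, the anaphase factors anapc11 and ercc6l, the centriole factor stil, and cip2a, an inhibitor of a phosphatase. Their log2FC lay between -1.33 (cip2a) and -1.01 (zranb3), each at low levels, from 2.20 to 15.2 CPM at 11 dpf and from 6.59 to 32.1 CPM at 10 dpf. mybl2 had 5.32 and 3.29 CPM at 11 dpf, against 11.1 and 10.4 CPM at 10 dpf, and chek1 4.58 and 4.55 CPM at 11 dpf, against 9.38 and 11.5 CPM at 10 dpf. The 9 dpf mean exceeded both 11 dpf libraries in all 15, and 4 of them alternated, as did 14 of the 93 list members (downwards). When single libraries were left out, wdhd1 and pclaf kept their call in 1 of the 4 fits and the other 13 in 0.

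**Figure D4:**
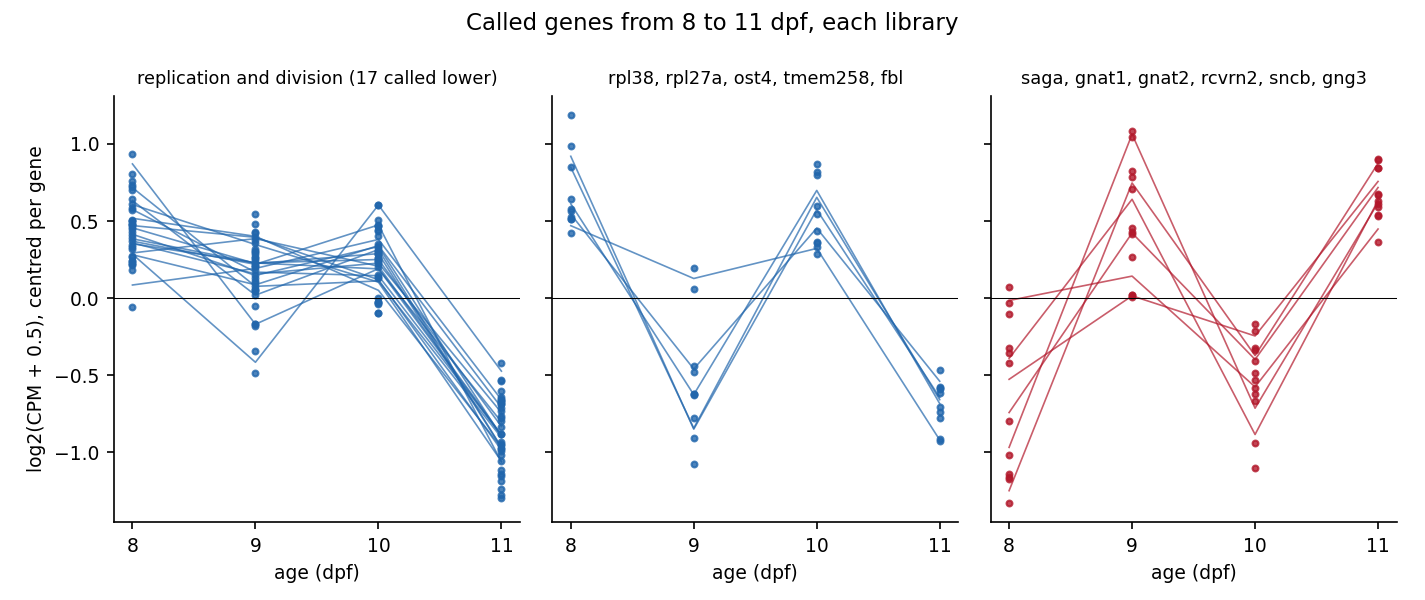
Centred log2(CPM + 0.5) per gene against age from 8 to 11 dpf, with each library as a point and stage means joined by lines. The 17 replication and division genes of the left panel were chosen among the genes that fell, so their fall at 11 dpf is given. The 5 genes of the middle panel are low at both 9 and 11 dpf except fbl, and most of the 6 genes of the right panel are high at both.

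Of 28 genes of cholesterol synthesis 24 had negative values, with a median log2FC of -0.42, where 49.5% of all genes had positive values. On this list 2 fell, against 0.445% of all genes. They were msmo1, a sterol methyl oxidase, with 20.8 and 17.9 CPM at 11 dpf, against 41.3 and 45.8 CPM at 10 dpf (log2FC -1.17, standard error 0.31), and idi1, the isomerase of isoprenoid units, with 14.5 and 16.5 CPM at 11 dpf, against 39.6 and 28.5 CPM at 10 dpf (log2FC -1.14, standard error 0.23). mvk, sc5d and dhcr7 had adjusted p under 0.05 at log2FC of -0.96, -0.98 and -0.78. Stage means at 6, 8 and 9 dpf were 194, 81.6 and 47.9 CPM for msmo1 and 103, 50.4 and 27.8 CPM for idi1. scp2b, a sterol carrier protein, fell with 7.39 and 6.43 CPM at 11 dpf, against 22.7 and 20.9 CPM at 10 dpf (adjusted p = 0.00106 in edgeR) and alternated. A gene without a name that the study's GO tables list under cholesterol biosynthesis, LOC113543868, went the other way, with 99.2 and 96.2 CPM at 11 dpf, against 47.6 and 48.1 CPM at 10 dpf (log2FC 1.03), and npc2, which binds cholesterol in lysosomes, rose with 34.4 and 31.5 CPM at 11 dpf, against 16.5 and 13.7 CPM at 10 dpf, both with alternating profiles. msmo1 lost its call without any 1 of the 4 libraries and idi1 kept it only without 10 dpf replicate 2 (adjusted p = 0.0267 in edgeR).

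Cytosolic ribosomal proteins had a median log2FC of -0.39, with negative values in 77 of 86 genes. rpl27a had 113 and 98.99 CPM at 11 dpf, against 297 and 258 CPM at 10 dpf, and rpl38 163 and 183 CPM at 11 dpf, against 500.3 and 369 CPM at 10 dpf. These were the 2 called members, where 0.445% of all genes fell. At 9 dpf rpl27a averaged 110.1 CPM and rpl38 152 CPM, against 261 and 505 CPM at 8 dpf, and 68 of the 86 genes alternated downwards, compared with 6.6% of all genes. Subunits of the oligosaccharyltransferase, ost4 with 20.4 and 18.7 CPM at 11 dpf, against 54.5 and 38.9 CPM at 10 dpf, and tmem258 with 47.4 and 42.7 CPM at 11 dpf, against 96.02 and 84.5 CPM at 10 dpf, had the same profile. The subunits of oxidative phosphorylation had 24 of 57 genes in this pattern, and a median of -0.21, and the mitochondrial ribosomal proteins 12 of 73 and a median of -0.17. None of either list was called in edgeR or in DESeq2 (14 and 12 at an unadjusted p under 0.05 in edgeR). fbl, the methyltransferase fibrillarin of the nucleolus, fell with 23.4 and 23.5 CPM at 11 dpf, against 54.9 and 57.5 CPM at 10 dpf (log2FC -1.26, standard error 0.14, adjusted p = 0.000178 in edgeR), as did psmc4, an ATPase of the proteasome, with 10.5 and 10.4 CPM at 11 dpf, against 25.7 and 28.8 CPM at 10 dpf. At 9 dpf fbl averaged 49.05 CPM and psmc4 13.9 CPM, and both stayed called without each library.

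Immune and acute phase genes moved in both directions. The plasma protein haptoglobin, hp, which binds free hemoglobin, had the largest fall among named genes of at least 5 CPM, with 2.96 and 3.45 CPM at 11 dpf, against 45.1 and 19.3 CPM at 10 dpf (log2FC -3.32, standard error 0.51, adjusted p = 0.00197 in edgeR). Its stage means were 37.2, 10.6, 4.14 and 1.22 CPM at 4, 6, 8 and 9 dpf, so the 10 dpf libraries, which differed from each other more than 2-fold, stood above those of 9 and 11 dpf (log2FC of 10 over 9 dpf 4.70, adjusted p = 0.000183 in edgeR). The lectin itln3 fell with 2.51 and 2.04 CPM at 11 dpf, against 22.9 and 12.5 CPM at 10 dpf, and its mean at 9 dpf was 5.54 CPM. Of the secreted olfactomedins of mucosa and neutrophils, olfm4.1 had 12.9 and 12.4 CPM at 11 dpf, against 41.7 and 19.6 CPM at 10 dpf, and olfm4.2 11.4 and 9.10 CPM at 11 dpf, against 45.7 and 18.9 CPM at 10 dpf. In these 4 genes 10 dpf replicate 1 was the higher library of 10 dpf, and without it the log2FC of olfm4.1 was -0.63 and that of olfm4.2 -0.88, no longer called, whereas hp stayed called (0.0420 as adjusted p in edgeR) and lost its call without 11 dpf replicate 1 (0.0604). LOC113531235, listed under defense response to bacterium in the study's GO tables, fell with 25.3 and 21.8 CPM at 11 dpf, against 74.3 and 90.6 CPM at 10 dpf (log2FC -1.81) and an alternating profile.

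Among those that rose were myd88, the adaptor of Toll-like receptors, with 7.98 and 8.16 CPM at 11 dpf, against 3.47 and 2.63 CPM at 10 dpf, and an alternating profile, LOC113546673, listed under chemotaxis and inflammatory response, with 6.95 and 8.00 CPM at 11 dpf, against 1.04 and 1.48 CPM at 10 dpf (log2FC 2.54, adjusted p = 0.00152 in edgeR), and LOC113537358, listed under response to bacterium, with 17.3 and 18.98 CPM at 11 dpf, against 2.26 and 4.61 CPM at 10 dpf. hp was the 1 called of 38 inflammation genes, whose median was 0.039, against 1.14% of all genes called in either direction. Interferon response genes had a median of 0.44 over 22 with none called in edgeR (8 at an unadjusted p under 0.05, and 0 called by DESeq2), and their largest value was 1.99 for rsad2, an antiviral enzyme, with 3.10 and 2.35 CPM at 11 dpf, against 0.521 and 0.823 CPM at 10 dpf. None of 13 lymphocyte and 21 myeloid genes was called in edgeR (4 and 2 at an unadjusted p under 0.05, and 0 called by DESeq2).

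Of the transcription factors induced within minutes of a stimulus, jun fell with 20.7 and 23.8 CPM at 11 dpf, against 46.02 and 46.6 CPM at 10 dpf, and egr1 with 8.87 and 7.53 CPM at 11 dpf, against 16.5 and 17.6 CPM at 10 dpf. They were the 2 called of 49 immediate early genes (median -0.28), where 0.445% of all genes fell, and jun alternated. nupr1b, a nuclear protein induced by stress, rose with 40.9 and 44.6 CPM at 11 dpf, against 14.9 and 14.7 CPM at 10 dpf (log2FC 1.53, adjusted p = 0.00197 in edgeR), as did manf, a secreted factor of the unfolded protein response, with 61.5 and 64.6 CPM at 11 dpf, against 32.8 and 28.7 CPM at 10 dpf. manf was the 1 called of 36 genes of that response, where 1.14% of all genes were called in either direction. None of 101 heat shock and chaperone genes was called in edgeR (23 at an unadjusted p under 0.05, and 0 called by DESeq2), and their median was 0.02.

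Some of the called genes lay in blocks of neighbours, described here after the values were seen and with gene order from fPanHyp1.pri. The genome was not searched for blocks. The called genes set the edges of each block, so their counts cannot be compared with the 0.445% and 0.699% of all genes that fell and rose. In the first block 7 of 10 successive tested genes fell, LOC113545764, LOC113545771, LOC113545758, LOC113545760, LOC113545757, LOC113545756 and LOC113545770, with log2FC from -2.50 to -1.01. LOC113545758 had 22.02 and 24.9 CPM at 11 dpf, against 42.02 and 54.3 CPM at 10 dpf, and LOC113545757 12.6 and 12.2 CPM at 11 dpf, against 23.8 and 26.3 CPM at 10 dpf. The 3 between them, LOC113545765, LOC113545774 and LOC113545772, had values of -0.71, -0.80 and -0.87 that did not pass, and the genes on either side, LOC113545777 and LOC113545745, -0.092 and -0.12. These genes carry no symbol or GO term in the sources used here. In another block irg1l, related to the enzyme that makes itaconate, si:ch211-153b23.3, si:ch211-153b23.4 and zgc:174917 rose, with log2FC of 1.04, 1.69, 1.35 and 1.56, and si:ch211-153b23.5 among them had 0.53, not called. The genes on either side, glod5 and si:ch211-153b23.7, had 0.041 and -0.64 and were not called either. zgc:174917 had 29.3 and 29.2 CPM at 11 dpf, against 10.2 and 9.55 CPM at 10 dpf. Whether these neighbours are near-identical copies that share reads was not tested.

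Of the 76 genes counted by the study as present in tra catfish and absent from channel catfish by a comparison of the 2 genomes, 46 could be tested. LOC113544571 and zgc:193505 rose and pet117 fell, where 0.699% of all genes rose and 0.445% fell, and the median of the 46 was -0.025. zgc:193505 had 32.2 and 38.8 CPM at 11 dpf, against 17.4 and 15.8 CPM at 10 dpf with an alternating profile, and pet117, an assembly factor of cytochrome oxidase, 1.18 and 1.57 CPM at 11 dpf, against 3.99 and 4.94 CPM at 10 dpf, near the floor. For the air-breathing organ, none of 36 swim bladder, surfactant and smooth muscle genes was called in edgeR (8 at an unadjusted p under 0.05, and 0 called by DESeq2), with values from -0.64 to 1.31 and a median of 0.14. The same holds for 51 hypoxia response genes (12 at an unadjusted p under 0.05 in edgeR, and 0 called by DESeq2), with a median of 0.057. Of all 19310 genes tested, 3925 had an unadjusted p under 0.05 in edgeR.

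**Figure D5:**
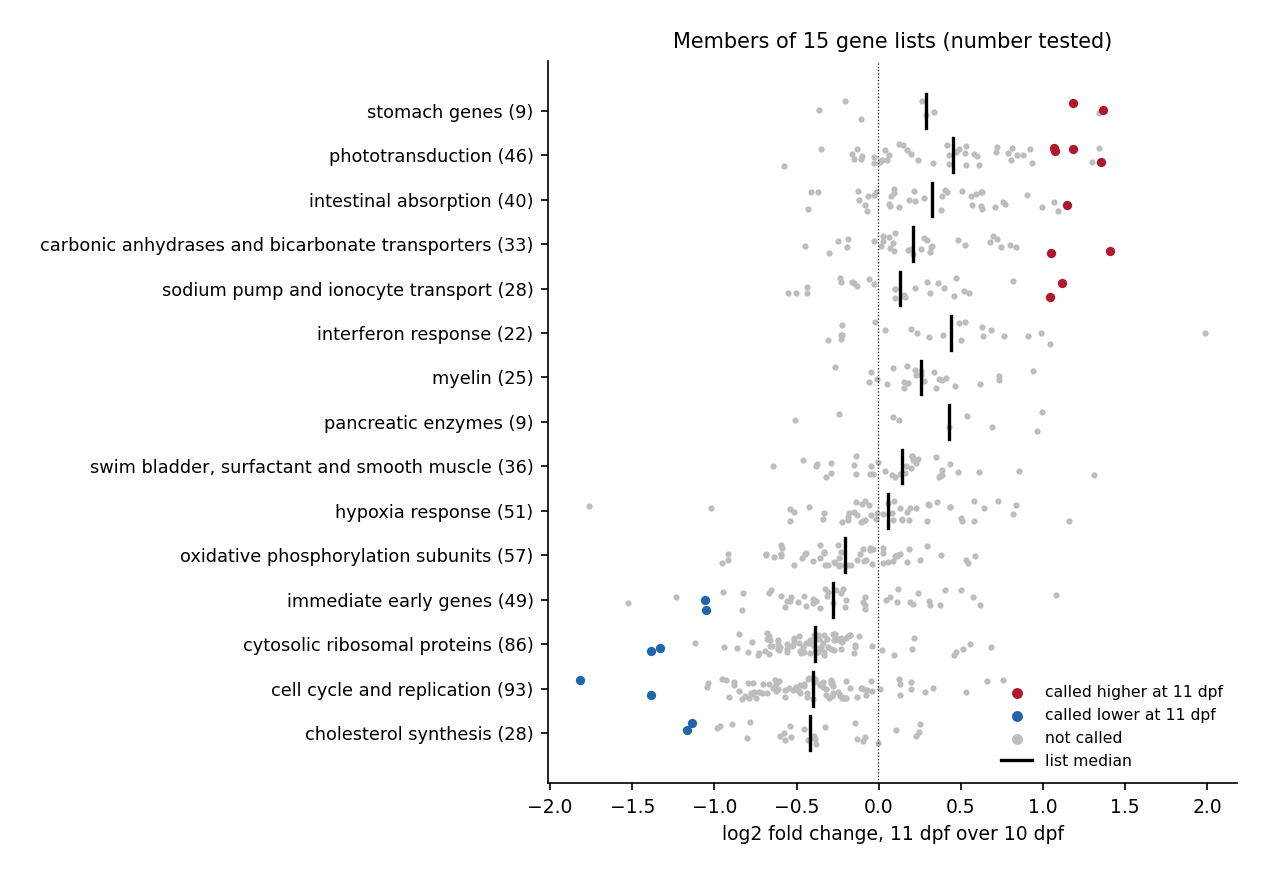
Log2 fold change of 11 dpf over 10 dpf for each tested member of 15 gene lists, with red for members that rose, blue for members that fell, grey for the rest, a black bar at the list median and a dotted line at the median of all genes. Phototransduction (median 0.45) and intestinal absorption (median 0.33) lie to the right, and cell cycle (median -0.40) and cholesterol synthesis (median -0.42) to the left.

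Sarcomere genes had 1 called of 77, the parvalbumin pvalb7, a calcium buffer of muscle, with 1.33 and 1.73 CPM at 11 dpf, against 3.65 and 5.43 CPM at 10 dpf, and keratins and skin genes 1 of 75, krt222, with 6.80 and 5.33 CPM at 11 dpf, against 2.26 and 1.15 CPM at 10 dpf. DESeq2 gave no adjusted p for either gene. Both counts are near the share of all genes called in either direction, 1.14%. By edgeR and by DESeq2, 0 were called among 49 genes of cartilage and bone (9 at an unadjusted p under 0.05 in edgeR), 131 of collagens and matrix remodelling (25), 44 of liver plasma proteins (11), 26 of pigment cells (4), 21 of lens crystallins (9), 25 of myelin (6), 25 of heme synthesis and red cells (10) and 53 of antioxidant defence (13). The same holds for 31 genes of fatty acid synthesis (9), 24 of the glucocorticoid response (8) and 17 of nuclear receptors and the thyroid axis (4). Haptoglobin hp, a plasma protein that fell, was counted in the inflammation list and not among the liver plasma proteins. The bone protein bglapl, an osteocalcin, came near, with 262 and 244 CPM at 11 dpf, against 145 and 149.5 CPM at 10 dpf (log2FC 0.78), as did the plasma protein ttr, which carries thyroid hormone, with 87.05 and 94.6 CPM at 11 dpf, against 48.1 and 48.6 CPM at 10 dpf (log2FC 0.91). Myelin genes had positive values in 21 of 25 with a median of 0.26, and 5 alternated upwards. Of the clock genes 0 were called by edgeR or DESeq2 (4 activators and 4 repressors or outputs at an unadjusted p under 0.05 in edgeR), with a median of -0.13 over 13 activators and 0.20 over 19 repressors and outputs, where tef, a clock output, had 32.2 and 31.7 CPM at 11 dpf, against 18.9 and 18.3 CPM at 10 dpf (log2FC 0.78).

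Further named genes with large changes belong to no list. zgc:153284 had 27.3 and 24.8 CPM at 11 dpf, against 7.64 and 3.95 CPM at 10 dpf, with a log2FC of 2.18 (standard error 0.26, adjusted p = 0.000296 in edgeR). cunh16orf89, a gene of unknown function, had 12.6 and 11.5 CPM at 11 dpf, against 3.47 and 3.95 CPM at 10 dpf (log2FC 1.69). Both alternated and were called without each library. nip7, which acts in ribosome assembly, had 22.02 and 28.4 CPM at 11 dpf, against 11.6 and 7.90 CPM at 10 dpf, and 20.1 CPM on average in the libraries of 9 dpf. eif4ebp3, which binds the cap-binding factor of translation and holds it back, had 17.9 and 16.9 CPM at 11 dpf, against 6.08 and 7.41 CPM at 10 dpf, and its call was lost without any 1 of the 4 libraries (log2FC 1.23 to 1.51). fkbp9, a prolyl isomerase of the endoplasmic reticulum, fell with 70.3 and 70.8 CPM at 11 dpf, against 150.03 and 136 CPM at 10 dpf, and fopnl, a centrosome protein, with 3.40 and 2.35 CPM at 11 dpf, against 7.81 and 6.59 CPM at 10 dpf, both alternating.

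Some members that stood farthest out in lists with 0 called passed the adjusted p alone. Higher at 11 dpf but short of a log2FC of 1 were acsl5, which activates long-chain fatty acids, at 93.7 and 97.3 CPM at 11 dpf, against 57.3 and 54.01 CPM at 10 dpf (log2FC 0.78), and the kinase sgk2a at 11.2 and 12.7 CPM at 11 dpf, against 5.73 and 8.07 CPM at 10 dpf. So was slc4a1b, an anion exchanger counted here in the heme and red cell list, at 20.7 and 19.6 CPM at 11 dpf, against 11.1 and 13.3 CPM at 10 dpf. Lower at 11 dpf within the same limits were the short-chain collagen col8a1a at 28.1 and 34.04 CPM at 11 dpf, against 71.02 and 46.8 CPM at 10 dpf (log2FC -0.92), mid1ip1b, a regulator of fatty acid synthesis, at 21.4 and 16.5 CPM at 11 dpf, against 26.7 and 37.7 CPM at 10 dpf, and pax7a, a transcription factor of pigment and muscle precursors, at 5.17 and 4.24 CPM at 11 dpf, against 9.38 and 8.23 CPM at 10 dpf. The melanosome protein pmel had 243 and 248 CPM at 11 dpf, against 161 and 154 CPM at 10 dpf, its groups apart and its adjusted p 0.0550 in edgeR. igfbp1b, a hypoxia-induced binding protein of insulin-like growth factors, had 0.443 and 0.628 CPM at 11 dpf, against 0.347 and 3.29 CPM at 10 dpf, where 10 dpf replicate 2 alone set the difference.

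LOC113537625 had 0 counts in both 11 dpf libraries, against 12 and 14 counts at 10 dpf, at least 4.80-fold lower when the 11 dpf level is set at 3 counts per library. LOC113532379 had 1 and 0 counts at 11 dpf, against 9 and 15 at 10 dpf. Both were singled out after their values were seen and have no name or GO term in the sources used here.

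When each of the 4 libraries was left out in turn, 39 of the 221 called genes were called in all 4 of these fits and 97 in 0. All kept their direction, which is close to given where the groups do not overlap. Without 10 dpf replicate 1 or, counted separately, replicate 2, 86 stayed called, without 11 dpf replicate 1 55 and without its replicate 2 62. Of the genes described above and not yet given with this check, scp2b, tspan3, aifm2, ucp1, g6pc1a.1, sncb, nupr1b, LOC113543868, LOC113531235, LOC113546673 and LOC113537358 were among the 39. Among the 97 were agxtb, gcga, gng3, gins3, rpl38, tmem258, irg1l, si:ch211-153b23.3, zgc:174917, LOC113545764, pet117, pvalb7 and fopnl. The rest were called in 1 to 3 of the 4 fits, among them cenpt, rpl27a, itln3, egr1, myd88, calb2, gja8b and krt222 in 1. Summing the 11 dpf pair to 1 library, added after its small spread was seen, left 93 of the calls, and summing the pairs of 6, 9 and 11 dpf left 1. In all other alternatives together 26 genes were called, 19 higher and 7 lower. They include slc26a3, slc43a2b, aqp7, ucp1, g6pc1a.1, nupr1b, sncb, tspan3 and aifm2 among those that rose, and fbl, psmc4, scp2b, LOC113531235 and the 3 genes listed under heme binding among those that fell.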

How the data were processed

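RNA of whole larvae was sequenced after ribosomal depletion. Raw counts of reads per gene were deposited by the authors as 1 table of 21656 genes and 14 libraries, and their processing notes name CASAVA 1.9.1, FastQC, Trimmomatic 0.36, STAR 2.7.0, HTSeq and DESeq2. The study names GENO_Phyp_1.0 as the genome. The strand setting of the counting is not given in the sources used here.

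Groups came from the sample labels. All 14 libraries were fitted with edgeR 4.0.16 (R 4.3.3, limma 3.58.1), with TMM scaling, the filterByExpr filter and a quasi-likelihood test of 11 against 10 dpf, and p-values were adjusted over 19310 genes by Benjamini-Hochberg. The standard error is the log2FC divided by the root of F. The test was checked on simulated counts of independent libraries. These held no alternating pattern, and their changes were larger than most of those called here, so the check does not vouch for the calls. Of 18 alternatives 2 used DESeq2 1.42.0.

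The gene lists, 41 in all, and the comparison itself were chosen with earlier results of these data known. Named were the 15 genes of largest change in each direction among called genes with a name, groups that do not overlap and at least 5 CPM, the 8 called genes of highest CPM in each direction, called list members, and the extremes of lists with 0 called. Names of 6917 identifiers and gene order came from the RefSeq annotation of fPanHyp1.pri, whose coordinates were not used. Python 3.11.15, numpy 2.4.6, pandas 2.3.3 and matplotlib 3.10.9 made tables and plots.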

Additional observations from a re-analysis of the deposited data

How the results depend on the processing

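The genes called at 11 against 10 dpf kept their direction in all 18 alternatives in which they were tested, while their number moved. Their groups do not overlap and the same counts entered each alternative, so a kept direction is close to given. DESeq2 on 4 libraries called 136 genes (87 higher, 49 lower), edgeR on the same 4 libraries 369 (239 and 130), and edgeR on the 6 libraries of 9 to 11 dpf 380 (254 and 126). Library totals without TMM gave 186 higher and 54 lower, with the median of all genes at 0.077 on the log2 scale. An unadjusted p with the fold limit kept gave 529 (340 and 189), and an adjusted p with no fold threshold 696 (369 and 327). Summing the pairs of 6, 9 and 11 dpf left 1 (0 and 1), with fewer samples. Of 2 alternatives chosen after seeing the data, summing the pair of 11 dpf gave 93 (66 and 27) and leaving out 4 dpf, the pair of widest spread, 336 (213 and 123). RLE scaling gave 220, no filter on low counts 220, a minimum of 10 counts in every library 162 and DESeq2 on 14 libraries 166. Leaving out each of the 4 libraries in turn gave 61 to 109 calls, 47 to 73 of them higher and 14 to 44 lower, where the lone library was assumed to vary like the other groups. DESeq2 gave no adjusted p to 3744 genes in the fit of 14 libraries and to 6662 in that of 4. Of the genes called by edgeR these include 28 and 84, while 28 and 7 were tested and lost their call. For these moves in number the cause was not tested, except where fewer genes or libraries entered by construction.

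The replicate block gave 195 calls (117 and 78). Replicate numbers only name pools, the correlation of same-numbered deviations between 11 and 10 dpf was -0.00099, and 2 pairs are too few to read a pairing. Of 108 genes named by the rule, 0 reversed in any alternative, where the called ones among them had little room to, and 4 lost their call under the block. At these depths a gene under about 0.5 CPM holds fewer than 3 counts a library, and changes below that were not detectable.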

Other observations

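Named genes outside the lists also changed, of which 4 are given here, chosen after their values were seen. ptn, the growth factor pleiotrophin, rose with 36.5 and 32.6 CPM at 11 dpf, against 17.9 and 13.8 CPM at 10 dpf (log2FC 1.13), and ognb, the small leucine-rich proteoglycan osteoglycin, with 24.98 and 27.5 CPM at 11 dpf, against 11.3 and 13.2 CPM at 10 dpf (log2FC 1.10). Without any 1 of the 4 libraries ognb lost its call. jag2a, a ligand of Notch receptors, fell with 15.96 and 16.3 CPM at 11 dpf, against 32.99 and 34.1 CPM at 10 dpf (log2FC -1.05), and an alternating profile, and megf6b, a protein with epidermal growth factor repeats, with 11.4 and 14.6 CPM at 11 dpf, against 29.2 and 25.03 CPM at 10 dpf. Of genes without a name, the 3 that fell and are listed under endopeptidase activity in the study's gene ontology tables all alternated. LOC113534536 had 94.3 and 92.2 CPM at 11 dpf, against 244 and 166 CPM at 10 dpf, LOC113546710 51.1 and 53.8 CPM at 11 dpf, against 126 and 98.6 CPM at 10 dpf, and LOC113534712 12.6 and 12.7 CPM at 11 dpf, against 43.8 and 23.1 CPM at 10 dpf. At 8 dpf they averaged 300.2, 284 and 75.7 CPM in that order.

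LOC113537390, which carries no name or term, was the gene of highest level among those that fell, with 769 and 757 CPM at 11 dpf, against 1491 and 2263 CPM at 10 dpf (log2FC -1.30). Its mean at 9 dpf was 716 CPM. LOC113526630 rose with 77.9 and 82.8 CPM at 11 dpf, against 15.5 and 17.5 CPM at 10 dpf (log2FC 2.29), and its mean was 58.1 CPM at 9 dpf against 7.60 CPM at 8 dpf. LOC113539559, listed under visual perception, rose with 67.8 and 69.2 CPM at 11 dpf, against 26.2 and 25.9 CPM at 10 dpf, and averaged 65.8 CPM at 9 dpf, as the photoreceptor genes that alternated did. LOC113524200 rose with 335 and 341 CPM at 11 dpf, against 127 and 205 CPM at 10 dpf, yet had 0 and 0 CPM in the libraries of 9 dpf and 135 and 107 CPM in those of 8 dpf.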
